A study of Mus musculus with 8 samples.

Results

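Genes for splicing factors were followed in mouse nephron progenitors, the stem-like cells of the cap mesenchyme from which nephrons form, at E18.5 of development. The members were chosen by name alone, as the gene symbols made of Srsf or of Sf3a or Sf3b with a number, and the symbols that begin with Hnrnp or Snrp. Of the 24539 genes in the table, 52 matched: 11 Srsf genes, 20 Hnrnp genes, 9 Sf3a or Sf3b genes and 12 Snrp genes. All 52 passed the filter on low counts and were among the 13459 genes tested. Polyadenylated RNA was sequenced from cells sorted from kidneys by the GFP of Six2GFPcre, a transgene that all groups carried and that makes a GFP and Cre fusion in Six2-expressing progenitors. The groups had 2 libraries each and differed in Smo, which relays the Hedgehog signal across the membrane. KO-labelled cells were Smo c/c, with a pair of the alleles that Cre deletes. Het-labelled cells were Smo c/+, and WT-labelled cells were Smo +/+. SmoM2-labelled cells were Smo +/+ and also Rosa26 SmoM2/+, an allele that expresses an active form of Smo. Titles number the replicates but do not say whether they were separate litters or pools, so p-values measure only the spread between these libraries, which may be technical in part.

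Splicing removes introns from RNA in the nucleus. Small nuclear ribonucleoproteins (snRNPs) recognise the ends of introns. Most of the main ones are built on a ring of Sm proteins that the genes Snrpb, Snrpd1, Snrpd2, Snrpd3, Snrpe, Snrpf and Snrpg encode. The SF3a and SF3b complexes belong to the U2 snRNP and bind it to the branch point. SR proteins, the products of the Srsf genes, mostly promote the use of exons, while hnRNP proteins coat new RNA and often repress exons. Many SR and hnRNP genes limit their own output through exons or introns that send the transcript to nonsense-mediated decay, so that a gene's total count can mix coding and non-coding transcripts.

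Promoters are shown because hnRNP genes both rose and fell in these comparisons, and 46 of the 52 genes had a promoter in the RefSeq table of GRCm38.p6. Each promoter ran from 250 bases before to 50 bases after the start of the gene. The printed genes were chosen after their values were seen: Hnrnpa1 and Hnrnpr, lower in Het-labelled libraries, Hnrnpa2b1, higher in KO-labelled libraries, and Hnrnpab, higher in KO- than in Het-labelled libraries. For each, the 200 bases before the start are given on the gene's strand, and none of them lies in an exon of the GENCODE M21 annotation. The windows are chr15:103240197-103240396 on the plus strand for Hnrnpa1, chr6:51469895-51470094 on the minus strand for Hnrnpa2b1, chr11:51606882-51607081 on the minus strand for Hnrnpab and chr4:136310742-136310941 on the plus strand for Hnrnpr. Capitals mark the CCAAT box, as CCAAT or as its reverse complement ATTGG.
Hnrnpa1: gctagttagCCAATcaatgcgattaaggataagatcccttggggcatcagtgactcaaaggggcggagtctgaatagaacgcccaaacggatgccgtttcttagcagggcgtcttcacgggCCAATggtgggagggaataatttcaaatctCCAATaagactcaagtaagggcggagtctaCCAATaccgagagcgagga
Hnrnpa2b1: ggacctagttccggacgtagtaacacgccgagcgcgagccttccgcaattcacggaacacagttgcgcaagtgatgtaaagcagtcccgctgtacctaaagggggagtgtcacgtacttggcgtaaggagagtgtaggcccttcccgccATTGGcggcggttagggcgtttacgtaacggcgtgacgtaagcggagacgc
Hnrnpab: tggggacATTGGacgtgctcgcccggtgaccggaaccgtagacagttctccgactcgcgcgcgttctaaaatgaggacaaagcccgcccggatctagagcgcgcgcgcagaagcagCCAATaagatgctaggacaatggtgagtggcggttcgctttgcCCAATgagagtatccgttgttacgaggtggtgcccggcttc
Hnrnpr: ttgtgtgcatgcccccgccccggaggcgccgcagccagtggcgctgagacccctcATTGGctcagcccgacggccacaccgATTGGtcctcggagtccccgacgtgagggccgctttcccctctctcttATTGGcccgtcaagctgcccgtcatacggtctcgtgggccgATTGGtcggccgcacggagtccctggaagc
The 4 windows held 4 matches in Hnrnpa1, 1 in Hnrnpa2b1, 3 in Hnrnpab and 4 in Hnrnpr. Over the full promoters, 12 of 18 hnRNP genes (66.7%) held at least 1 CCAAT, against 38.6% of the promoters of the 10330 tested genes in the RefSeq table and 37.4% of all 32851 promoters. The 4 printed genes are among these 12, but not every hnRNP gene that changed is. Hnrnpd and Hnrnpm had a promoter without a match, and Hnrnph3 and Hnrnpdl are not among the 12 either. At least 3 matches stood in 7 of the 18 (38.9%), against 5.27% of the tested genes. Among the other members, CCAAT was in 4 of 11 Srsf, 4 of 10 Snrp and 2 of 7 Sf3 promoters. The Ets motif CCGGAAG was in 16 of the 46 promoters (34.8%; 17.8% of tested genes, 8.86% of all promoters), and the E-box CACGTG in 5 (10.9%; 10.3% and 7.15%). The Gli motif GACCACCCA, named for the factors downstream of Smo, was in none of the 46 (0.213% of tested genes and 0.253% of all promoters). Both strands were searched, the motifs do not overlap one another in sequence, and a match is only a match of letters.

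The listed counts summed to between 4422305 and 10305398 a library, lowest in the KO-labelled and highest in the WT-labelled libraries. Smo went against a label: it stood at 14.4 and 23.9 CPM (counts as a share of the scaled library size) in the Het-labelled libraries, close to 13.1 and 11.1 CPM in the KO-labelled ones and far below 363 and 375 CPM in the WT-labelled and 605 and 629 CPM in the SmoM2-labelled ones. Groups are therefore named by their labels. Xist gave 2 and 1 counts in the KO-labelled libraries, 10260 and 9663 in the Het-labelled ones, 4 and 18238 in the WT-labelled ones and 5 and 12330 in the SmoM2-labelled ones, so the 2 KO-labelled libraries were both of the male pattern and the 2 Het-labelled ones both of the female pattern. The WT-labelled and the SmoM2-labelled pair each held 1 library of each pattern and so were not repeat libraries of 1 sample. Sex and group cannot be told apart for the KO- and Het-labelled libraries, and KO against Het also compares the male with the female pattern. The progenitor marker Six2 ranged from 1132 to 2105 CPM. Of other cell types, the endothelial list of 6 genes summed to at most 3.40 CPM a library, and the podocyte list of 5 summed to between 33.7 and 58.5 CPM. The collecting duct list (7 genes) summed to 30.8 and 29.0 CPM in the KO-labelled, 22.5 and 26.7 in the Het-labelled, 34.1 and 36.7 in the WT-labelled and 55.5 and 66.7 in the SmoM2-labelled libraries. The immune list (5) summed to 17.9 and 13.9, 47.2 and 43.3, 25.7 and 30.3, and 24.7 and 31.2 CPM. The stromal list (7) summed to 669 and 174, 254 and 407, 499 and 333, and 668 and 545 CPM, so that the KO-labelled pair spanned the whole range. The part of these 3 lists in the members' changes was not tested.

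Read per length, as the RPKM values of the authors' table, the hnRNP genes held the highest levels. Hnrnpa0, an RNA-binding protein encoded without introns, averaged 638 RPKM over the 8 libraries and ranged from 505 to 822. Hnrnpa1, a repressor of exon use that also escorts mRNA, averaged 439.8 RPKM and ranged from 296 to 550.2. Among snRNP genes, Snrpd2 averaged 359.7 RPKM (299.9 to 524) and Snrpg averaged 321 RPKM (234 to 439). Srsf2 (282 RPKM) and Srsf5 (194 RPKM) led the SR genes, and Sf3b2 (133 RPKM) and Sf3b5 (100.4 RPKM) the SF3 genes. The lowest levels were those of Srsf12 at 0.434 RPKM, with 2 to 20 counts a library, Snrpn at 6.17 RPKM and Hnrnpa3 at 7.83 RPKM. Together the 52 genes took between 1.66% and 2.12% of the listed counts. Their summed level was 20125 and 20545 CPM in the KO-labelled libraries, 17768 and 16744 in the Het-labelled, 16596 and 19013 in the WT-labelled and 17259 and 19135 in the SmoM2-labelled libraries. The KO-labelled sums were the highest, and those of the other groups overlapped. In these bulk libraries, fewer cells of a type and less RNA per cell cannot be told apart.

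Changes were tested with edgeR's quasi-likelihood test, adjusted over all 13459 genes with a threshold of 0.05, and are given on the log2 scale with their standard errors (SE). Against WT-labelled libraries, 15 members passed in KO-labelled ones, 14 higher and 1 lower, where 23% of all tested genes passed (11.6% higher and 11.4% lower). The share of members, 28.8%, was near that background, and the split by direction was uneven. Their median change was 0.21, against 0.03 over all tested genes, and the libraries did not overlap for 27 higher and 7 lower members (32.2% and 29.8% of all tested genes). Het-labelled libraries gave 14 members, 6 higher and 8 lower, where 25.3% of all genes passed (13.1% higher, 12.2% lower). The share of members was 26.9% and their median change -0.02, the same as over all genes. Libraries did not overlap for 18 higher and 18 lower members (32.8% and 34.1% of all tested genes). No member passed between SmoM2- and WT-labelled libraries, where 0.223% of all genes did (0.156% higher, 0.0669% lower). KO- against Het-labelled libraries gave 10 members, 8 higher and 2 lower, or 19.2%, where 9.43% of all genes passed (4.33% higher, 5.1% lower). Here 32 higher and 6 lower members did not overlap (29.2% and 27.6% of all tested genes), and the median change was 0.28, against 0.02 over all genes. A test over all 4 groups passed 26 of the 52 members (50%), against 41% of all genes. Every change that passed was below 2-fold. The 3 comparisons with WT-labelled libraries share those libraries. The KO-labelled group had the highest mean of the 4 for 32 members (61.5%, against 30.5% of all tested genes), and the Het-labelled group the lowest for 25 (48.1%, against 29.3%).

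**Figure D1:**
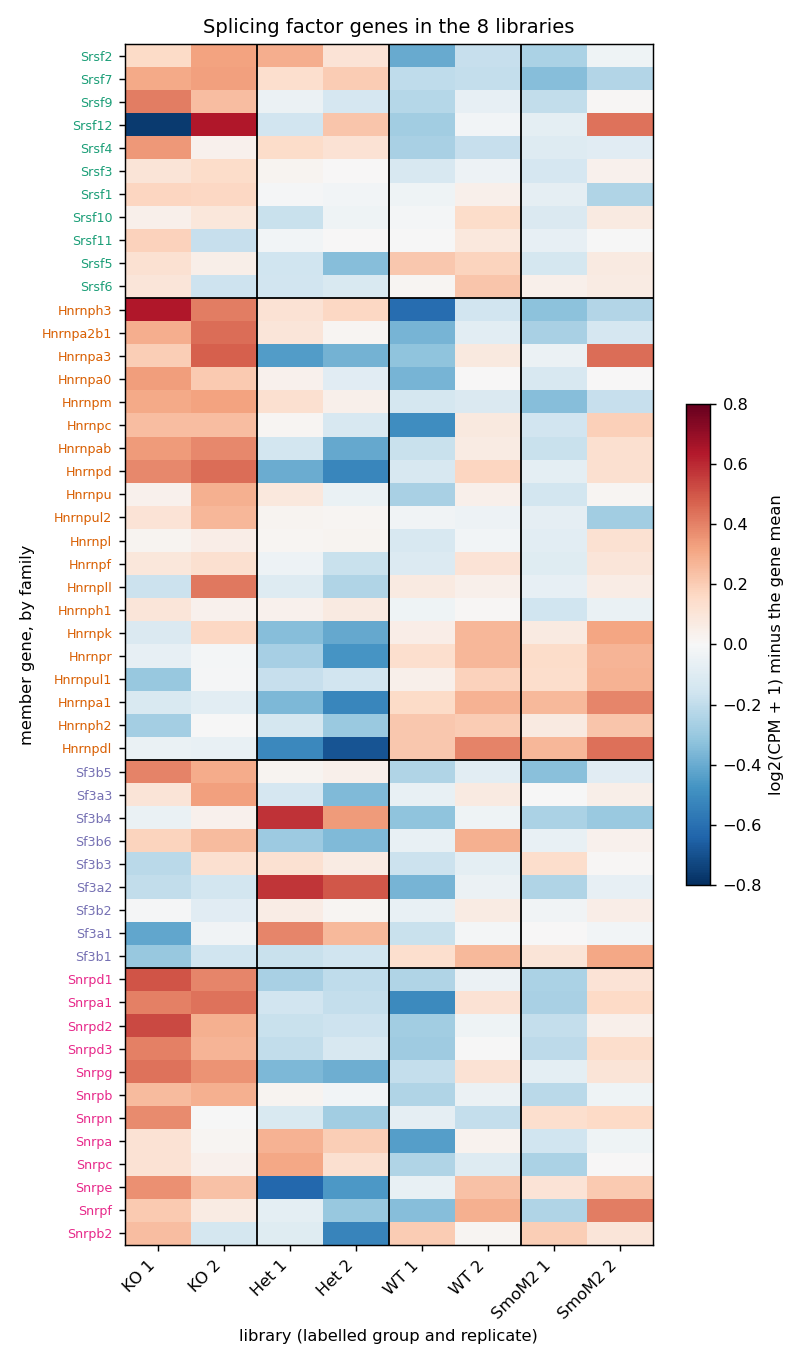
Each row is a splicing factor gene and each column a library; colour is log2(CPM + 1) minus the gene's mean over the 8 libraries, red above and blue below it. The KO-labelled columns are mostly red (32 of 52 genes had their highest group mean there), and the Het-labelled columns are blue for Hnrnpdl, Hnrnpa1 and Snrpe and red for Sf3a2 and Sf3b4.

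Most calls for KO against WT and Het against WT, and all calls for KO against Het, depended on single libraries. The exceptions were Hnrnph3 and Srsf7 in KO against WT and Hnrnpdl and Sf3a2 in Het against WT. Leaving out any library leaves its group with a single library. Counts of members passing such a fit cannot be read as particular to the members. They are given only as ranges, with the other processing settings.

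**Figure D2:**
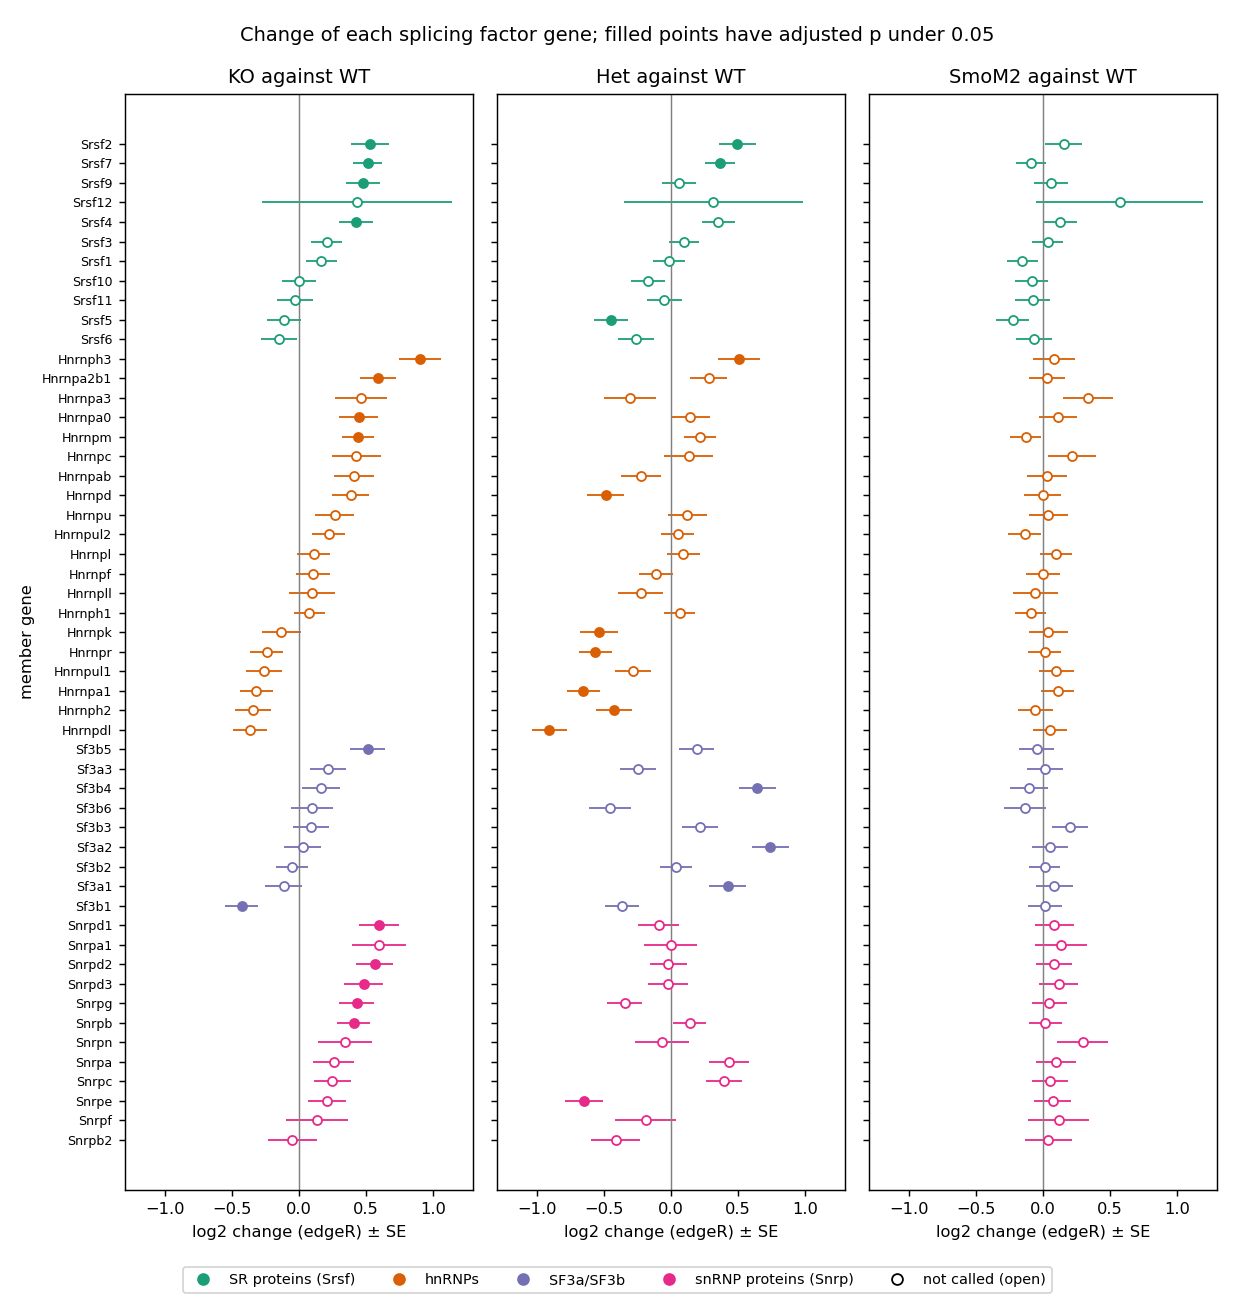
The log2 change of each of the 52 genes (points, with the SE as bars) is drawn for KO, Het and SmoM2 against WT-labelled libraries, by family; filled points have an adjusted p under 0.05. Filled points number 15, 14 and 0 in the 3 panels.

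Of the 7 Sm ring genes, 5 rose in KO- against WT-labelled libraries, namely Snrpb, Snrpd1, Snrpd2, Snrpd3 and Snrpg, with changes from 0.41 to 0.60, while Snrpe and Snrpf overlapped the WT-labelled pair. Over all tested genes 11.6% were higher, and 24.6% of those under 1500 bases, a length that all 7 ring genes fall under. All 5 calls were lost once the trend over gene length was removed (adjusted p from 0.205 to 0.912). Snrpd1 stood at 78.2 and 72.3 CPM in the KO-labelled, 45.6 and 47.4 in the Het-labelled, 46.2 and 53.0 in the WT-labelled and 45.8 and 59.3 in the SmoM2-labelled libraries. Snrpd2 stood at 302 and 256, 185 and 187, 173 and 205, and 183 and 215 CPM in the same order. In both genes the KO-labelled libraries lay above all others, and the other 3 groups overlapped. Against the WT-labelled pair, Snrpd1 rose by 0.60 (SE 0.15, edgeR adjusted p = 0.016) and Snrpd2 by 0.57 (SE 0.14, edgeR adjusted p = 0.0143). Snrpd3 rose by 0.48 (SE 0.15, adjusted p = 0.0361) and Snrpb by 0.41 (SE 0.12, adjusted p = 0.0335).

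Snrpg and Snrpe, which sit beside each other in the ring, were lowest in the Het-labelled libraries. Snrpg stood at 204 and 193 CPM in the KO-labelled, 117 and 114 in the Het-labelled, 132 and 163 in the WT-labelled and 142 and 161 in the SmoM2-labelled libraries. Snrpe stood at 73.5 and 66.8, 36.4 and 40.9, 54.3 and 66.9, and 61.5 and 65.9 CPM. The Het-labelled pair of Snrpe was below every other library, while its KO-labelled pair overlapped the WT-labelled pair. Snrpe fell by 0.65 (SE 0.14, edgeR adjusted p = 0.0083) in Het- against WT-labelled libraries, and its change in KO-labelled ones was 0.21 (SE 0.14, adjusted p = 0.301). Snrpg rose by 0.43 (SE 0.13, adjusted p = 0.0376) in KO-labelled libraries, and its change in Het-labelled ones was -0.35 (SE 0.13, adjusted p = 0.0767). Between KO- and Het-labelled libraries, 4 ring genes rose, where 4.33% of all tested genes did: Snrpe by 0.86 (SE 0.15, adjusted p = 0.0086), Snrpg by 0.78 (SE 0.14, adjusted p = 0.00902), Snrpd1 by 0.69 (SE 0.15, adjusted p = 0.0206) and Snrpd2 by 0.59 (SE 0.14, adjusted p = 0.026). All 4 were lost with the length trend removed (adjusted p from 0.135 to 0.745). They were also lost without the first Het-labelled library (adjusted p from 0.0935 to 0.164), and those of Snrpd1, Snrpd2 and Snrpg also without the second (0.0601 to 0.131). Without the first KO-labelled library Snrpd1 and Snrpd2 were lost as well (0.0906 and 0.125), and Snrpd1 without the second (0.0537). Snrpf, the remaining ring gene, did not pass in any comparison (0.14 and -0.19 against WT-labelled libraries), and 89.5% of its exonic 50-base windows also occur in another annotated gene, among them Ccdc38 on the opposite strand.

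As first tested, no Snrp gene for a protein of a single snRNP passed. Snrpa and Snrpc, which belong to U1, had changes of 0.26 and 0.25 in KO- and 0.43 and 0.40 in Het-labelled libraries, with adjusted p from 0.053 to 0.235. With the length and GC trends removed, Snrpc passed in Het- against WT-labelled libraries (0.60, edgeR adjusted p = 0.00619). It then also passed in KO- against Het-labelled ones (-0.62, adjusted p = 0.0332). Snrpa1, of U2, had a change of 0.60 in KO-labelled libraries (SE 0.20, adjusted p = 0.0507), and Snrpb2, of U2 as well, one of -0.05. Snrpn, the imprinted copy of Snrpb, ranged from 14.4 to 23.2 CPM, and its intervals were wide (0.35, SE 0.20, in KO-labelled libraries). All 12 Snrp genes had a change above 0 in SmoM2-labelled libraries, at most 0.29, and none passed. Their median change was 0.08, against 0.003 over all tested genes, and 36 of the 52 members were above 0. The KO calls of Snrpd1 and Snrpd2 were lost without the first KO-labelled library (adjusted p = 0.0921 and 0.104) and without the first WT-labelled one (0.0925 and 0.0886). Those of Snrpb, Snrpd3 and Snrpg were lost without either KO-labelled library (adjusted p from 0.0627 to 0.166), either Het-labelled one (0.0732 to 0.0877) or the first WT-labelled one (0.169 to 0.231). Snrpb and Snrpg were also lost without either SmoM2-labelled library (0.06 to 0.065), and Snrpb without the second WT-labelled one (0.0543). Snrpe in Het-labelled libraries lost its call without the first Het-labelled (adjusted p = 0.072) or the second WT-labelled library (0.0549).

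Genes of the same SF3 complex did not share a direction. SF3a has the subunits Sf3a1, Sf3a2 and Sf3a3, and Sf3a2 and Sf3a1 rose in Het-labelled libraries while Sf3a3 had a change of -0.25 (SE 0.13, adjusted p = 0.198). Sf3a2 stood at 118 and 123 CPM in the KO-labelled, 203 and 193 in the Het-labelled, 105 and 132 in the WT-labelled and 115 and 130.2 in the SmoM2-labelled libraries. Its Het-labelled pair was above all other libraries, which overlapped. It rose by 0.74 (SE 0.14, edgeR adjusted p = 0.00332), which is 1.67-fold, and its log2 change from Het- to KO-labelled libraries was -0.71 (SE 0.14, adjusted p = 0.0132). Sf3a1 stood at 181 and 237, 318 and 289, 214 and 239, and 242 and 237 CPM, with the Het-labelled pair again on top. It rose by 0.42 (SE 0.14, adjusted p = 0.0453) against WT-labelled libraries, and from Het- to KO-labelled libraries it changed by -0.54 (SE 0.14, adjusted p = 0.0365).

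In SF3b, Sf3b4, the subunit that contacts RNA near the branch point, stood at 92.8 and 98.6 CPM in the KO-labelled, 144 and 122 in the Het-labelled, 76.8 and 94.2 in the WT-labelled and 80.7 and 78.1 in the SmoM2-labelled libraries. It rose in Het-labelled libraries by 0.64 (SE 0.14, edgeR adjusted p = 0.0074). Sf3b1, the large subunit that holds the branch point, stood at 321 and 354, 350.0 and 354, 434 and 474, and 426 and 490.5 CPM, so that the KO- and Het-labelled libraries together lay below the WT- and SmoM2-labelled ones. It fell in KO-labelled libraries by 0.43 (SE 0.13, adjusted p = 0.0306), and its change in Het-labelled ones was -0.37 (SE 0.12, adjusted p = 0.0501). Sf3b5, the shortest gene of the family in the table, stood at 116 and 109, 89.6 and 90.9, 74.6 and 83.4, and 69.8 and 83.0 CPM, and it rose in KO-labelled libraries by 0.51 (SE 0.13, adjusted p = 0.0179). Sf3b2, the member of this family with the highest level per length, passed in no comparison: it ranged from 492 to 548 CPM, and its changes against WT-labelled libraries were -0.05, 0.04 and 0.01, with 95% confidence intervals within -0.31 and 0.29.

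With the length and GC trends removed, Sf3b1 and Sf3b5 lost their KO calls (-0.07 and 0.24, edgeR adjusted p = 0.718 and 0.145). Sf3b4 and Sf3a2 lost their Het calls (0.41 and 0.29, adjusted p = 0.0736 and 0.172), while Sf3a1 kept its Het call (0.43). Calls of this family also depended on single libraries. Sf3a1 lost its Het call without any 1 of the Het-, WT- or SmoM2-labelled libraries (adjusted p from 0.0809 to 0.277), and its KO against Het call without the first KO-labelled, either Het-labelled or either SmoM2-labelled one (0.0508 to 0.222). Sf3b4 lost its Het call without the first Het-labelled (0.0984) or first WT-labelled library (0.0524). Sf3b5 lost its KO call without the first KO-labelled (0.0908) or first WT-labelled library (0.104), and Sf3b1 without the first KO-labelled (0.155) or second WT-labelled one (0.102). Sf3a2 kept its Het against WT call without any 1 of the 8 libraries, and its KO against Het call was lost without the first KO-labelled (0.0643) or first Het-labelled library (0.113).

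Of the 11 SR genes, 4 rose in KO-labelled libraries against WT-labelled ones and none fell (11.6% of all tested genes were higher and 11.4% lower). Srsf7, an SR protein with a zinc knuckle, stood at 338 and 345 CPM in the KO-labelled, 301 and 316 in the Het-labelled, 239 and 240.4 in the WT-labelled and 216 and 233 in the SmoM2-labelled libraries. The groups lay in that order without overlap. It rose by 0.51 in KO-labelled libraries (SE 0.11, edgeR adjusted p = 0.00849) and by 0.37 in Het-labelled ones (SE 0.11, adjusted p = 0.0317). The KO call of Srsf7 held in all 18 other settings tried, with changes from 0.44 to 0.63, while its Het call was lost without any 1 of the Het-, WT- or SmoM2-labelled libraries (adjusted p from 0.0639 to 0.215).

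Srsf2, one of the SR proteins that act early on exon definition, stood at 713 and 805 CPM in the KO-labelled, 787 and 693 in the Het-labelled, 486 and 564 in the WT-labelled and 539 and 628 in the SmoM2-labelled libraries. The KO- and Het-labelled libraries lay above the rest and overlapped each other. It rose by 0.53 in KO-labelled (SE 0.14, edgeR adjusted p = 0.0197) and 0.50 in Het-labelled libraries (SE 0.14, adjusted p = 0.0237). Without the first WT-labelled library both calls were lost (adjusted p = 0.0995 and 0.115). The KO call was also lost without the second KO-labelled library (0.0993) and the Het call without either Het-labelled one (0.214 and 0.0723). Of Srsf2, 35.2% of exonic windows also lie in another gene, here Mettl23 and Mfsd11 on the opposite strand. Srsf9 rose by 0.48 (SE 0.13, adjusted p = 0.0197) and Srsf4 by 0.42 (SE 0.13, adjusted p = 0.0326) in KO-labelled libraries, and 65.4% of the windows of Srsf4 overlap Gm12992 on the opposite strand. Both lost their calls without the first KO-labelled (0.116 and 0.223) or first WT-labelled library (0.108 and 0.13), and Srsf4 also without any other WT-, Het- or SmoM2-labelled library (0.0653 to 0.0935).

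Srsf5 alone among the SR genes was lower in a comparison that passed. It stood at 424 and 402 CPM in the KO-labelled, 349 and 308 in the Het-labelled, 453 and 441 in the WT-labelled and 353 and 410.0 in the SmoM2-labelled libraries, so that only the Het-labelled pair was below every other library. It changed by -0.45 in the Het-labelled pair (SE 0.13, edgeR adjusted p = 0.0246), a call lost without any 1 of the Het- or WT-labelled libraries (adjusted p from 0.0537 to 0.19). No SR gene passed between KO- and Het-labelled libraries, with changes from 0.02 to 0.42, all above 0. Srsf1, Srsf3, Srsf6, Srsf10, Srsf11 and Srsf12 passed in none of the 4 comparisons.

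The hnRNP genes held the largest changes in both directions. Hnrnph3, the short member of the H family that binds runs of G, stood at 152 and 129.8 CPM in the KO-labelled, 105 and 109 in the Het-labelled, 63.5 and 87.5 in the WT-labelled and 77.2 and 82.4 in the SmoM2-labelled libraries. All 4 KO- and Het-labelled libraries lay above all 4 others, and the KO-labelled above the Het-labelled. It rose by 0.90 in KO-labelled libraries (SE 0.16, edgeR adjusted p = 0.00297), or 1.87-fold, and by 0.51 in Het-labelled ones (SE 0.16, adjusted p = 0.0352). From Het- to KO-labelled libraries the change was 0.39 (SE 0.16, adjusted p = 0.133), which did not pass. The gene lies at chr10:63014664-63024217 (GRCm38, minus strand, GENCODE M21), and 3.1% of its exonic windows occur in another gene. Its KO call held in all 18 other settings (0.68 to 1.12), and its Het call was lost without any 1 of the Het- or SmoM2-labelled libraries or the first WT-labelled one (adjusted p from 0.0541 to 0.237). Its relatives did not follow: Hnrnph1 had changes of 0.08 and 0.06 in KO- and Het-labelled libraries, and Hnrnph2, on the X chromosome, had changes of -0.34 (SE 0.14, adjusted p = 0.0884) and -0.43 (SE 0.13, adjusted p = 0.0361). The call of Hnrnph2 was lost without any 1 of the Het- or WT-labelled libraries (adjusted p from 0.0801 to 0.214).

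**Figure D3:**
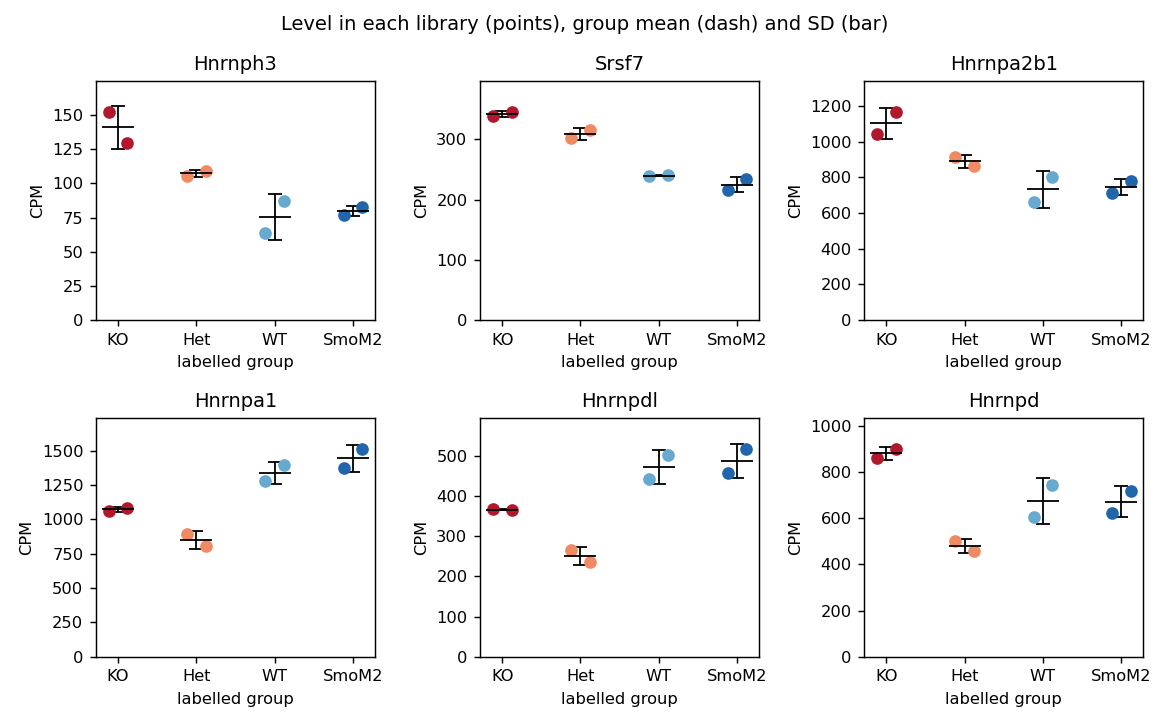
CPM of 6 genes in each library (points), with the group mean (dash) and SD (bar, n = 2), by labelled group. The upper row holds Hnrnph3, Srsf7 and Hnrnpa2b1, highest in the KO-labelled libraries, and the lower row Hnrnpa1, Hnrnpdl and Hnrnpd, lowest in the Het-labelled ones, where Hnrnpd stands at 499.7 and 459 CPM.

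Hnrnpa2b1 and Hnrnpa1, closely related proteins of the core hnRNP particle, moved apart. Hnrnpa2b1 stood at 1043 and 1165 CPM in the KO-labelled, 914 and 863 in the Het-labelled, 661 and 805 in the WT-labelled and 713 and 778 in the SmoM2-labelled libraries. Hnrnpa1 stood at 1059.7 and 1085, 896 and 803, 1282 and 1395, and 1375 and 1512 CPM. The KO- and Het-labelled libraries were thus above the others for Hnrnpa2b1 and below them for Hnrnpa1. Hnrnpa2b1 rose by 0.59 in KO-labelled libraries (SE 0.14, edgeR adjusted p = 0.0107), with a change of 0.28 in Het-labelled ones (SE 0.13, adjusted p = 0.149). Hnrnpa1 fell by 0.66 in Het-labelled libraries (SE 0.12, edgeR adjusted p = 0.00381), with a change of -0.32 in KO-labelled ones (SE 0.12, adjusted p = 0.0824). The Hnrnpa2b1 call was lost without the second KO-labelled (0.0592) or first WT-labelled library (0.0608), and that of Hnrnpa1 without the second Het-labelled one (0.0525). Hnrnpa1 lies at chr15:103240432-103246692 on the plus strand, and 46.4% of its exonic windows recur in other annotated genes such as Gm10052, so that its reads could be split. The promoters of Hnrnpa1 and Hnrnpa2b1, both with a CCAAT match, are printed above.

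Hnrnpd and Hnrnpdl, paralogues that bind AU-rich RNA and lie near each other on chromosome 5, were both lowest in Het-labelled libraries. With the length and GC trends removed, their changes against WT-labelled libraries differed. Hnrnpdl kept its call (-0.81, edgeR adjusted p = 0.00189), and Hnrnpd lost its own (-0.18, adjusted p = 0.39). Hnrnpdl stood at 366 and 366 CPM in the KO-labelled, 266 and 235 in the Het-labelled, 441 and 501 in the WT-labelled and 457 and 517 in the SmoM2-labelled libraries. It fell by 0.91 in Het-labelled libraries (SE 0.13, edgeR adjusted p = 0.000922), or 1.88-fold, the largest fall of any member in the 4 comparisons. Its change in KO-labelled ones was -0.36 (SE 0.13, adjusted p = 0.0611), and KO- exceeded Het-labelled libraries by 0.55 (SE 0.13, adjusted p = 0.0264). The fall in Het-labelled libraries held in all 18 other settings, between -1.03 and -0.79. Hnrnpd stood at 860.0 and 899.6, 499.7 and 459, 603 and 743, and 624 and 719 CPM, so that the KO-labelled pair was the highest and the Het-labelled pair the lowest. It fell by 0.49 in Het-labelled libraries (SE 0.14, edgeR adjusted p = 0.0243), had a change of 0.39 in KO-labelled ones (SE 0.14, adjusted p = 0.0639), and was 1.84-fold higher in KO- than in Het-labelled ones (log2 change 0.88, SE 0.14, adjusted p = 0.00718). That last call was lost without the first (0.0808) or second Het-labelled library (0.0559), the Het call of Hnrnpd without either of those or the second WT-labelled one (0.0752 to 0.16), and the KO against Het call of Hnrnpdl without any 1 of the KO- or Het-labelled libraries (0.0821 to 0.21).

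Hnrnpk and Hnrnpr also fell in Het-labelled libraries. Hnrnpk, a KH-domain protein, stood at 696 and 844 CPM in the KO-labelled, 594 and 566 in the Het-labelled, 781 and 905 in the WT-labelled and 791 and 939.6 in the SmoM2-labelled libraries. Hnrnpr stood at 209 and 217, 182 and 158, 239.7 and 263, and 242 and 264 CPM. In both, the Het-labelled pair was below every other library. Their changes in Het-labelled libraries were -0.54 (SE 0.14, edgeR adjusted p = 0.019) and -0.57 (SE 0.12, adjusted p = 0.00729). From Het- to KO-labelled libraries the changes were 0.41 and 0.33, and neither passed (adjusted p = 0.0946 and 0.113). The call of Hnrnpk was lost without any 1 Het-labelled (0.0768 and 0.121) or the second WT-labelled library (0.0826), and that of Hnrnpr without the second Het-labelled one (0.0817).

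Hnrnpab and Hnrnpa3 passed in KO- against Het-labelled libraries alone. Hnrnpab, which like Hnrnpd binds AU-rich RNA, stood at 1203 and 1243 CPM in the KO-labelled, 859 and 715 in the Het-labelled, 842 and 998 in the WT-labelled and 839 and 1039 in the SmoM2-labelled libraries. Hnrnpa3 stood at 55.6 and 67.7, 35.3 and 37.0, 38.5 and 51.1, and 46.7 and 66.2 CPM. The KO-labelled pair of Hnrnpab was above all other libraries, and that of Hnrnpa3 overlapped the SmoM2-labelled pair. KO- exceeded Het-labelled libraries by 0.64 for Hnrnpab (SE 0.15, edgeR adjusted p = 0.0263) and by 0.77 for Hnrnpa3 (SE 0.20, adjusted p = 0.0348), and both calls were lost without any 1 of the KO- or Het-labelled libraries (adjusted p from 0.0699 to 0.206). Hnrnpm and Hnrnpa0 completed the risers of KO- against WT-labelled libraries, at 0.44 each (SE 0.12 and 0.14, adjusted p = 0.0211 and 0.0457). Hnrnpa0 stood at 2603 and 2381 CPM in the KO-labelled, 2114 and 1932 in the Het-labelled, 1595 and 2067 in the WT-labelled and 1884 and 2065 in the SmoM2-labelled libraries. Both were lost without any 1 KO- or Het-labelled or the first WT-labelled library (adjusted p from 0.0593 to 0.229), Hnrnpm also without the second WT-labelled one (0.0796) and Hnrnpa0 without either SmoM2-labelled one (0.0739 and 0.0766).

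No difference between SmoM2- and WT-labelled libraries was found for any member. None passed with edgeR or with DESeq2, and none had an unadjusted edgeR p under 0.05. Changes ran from -0.23 for Srsf5 to 0.57 for Srsf12, whose counts were 20 at most. Leaving Srsf12 aside, the 95% confidence intervals of the changes lay within -0.51 and 0.75, and differences inside those intervals could not be resolved with 2 libraries a group. Hnrnph3, Srsf7, Hnrnpa1 and Hnrnpdl, which moved elsewhere, had changes of 0.08 (95% confidence interval -0.26 to 0.43), -0.09 (-0.33 to 0.15), 0.11 (-0.16 to 0.38) and 0.05 (-0.23 to 0.33). The pairs did not overlap for 10 members, 3 higher (Sf3b3, Snrpn and Srsf4) and 7 lower (Hnrnph1, Hnrnpm, Hnrnpul2, Srsf1, Srsf5, Srsf7 and Srsf11), where 17.4% of all genes were higher and 18.4% lower without overlap.

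Gene length moved with the changes, in the members as in all genes. Between KO- and WT-labelled libraries, the rank correlation of change with the table's gene length was -0.39 over the 52 members and -0.38 over all tested genes, given as a description, since genes share the libraries. The 13 members under 1500 bases had a median change of 0.43 and 7 passed as higher, where the median of all genes of that length was 0.34 and 24.6% were higher. The 22 members from 1500 to 3000 bases had a median of 0.30, with 7 higher (0.14 and 13.9% for all genes of that length). The 17 members over 3000 bases had a median of -0.00, none was higher and 1, Sf3b1, was lower. Of all 6771 tested genes of that length, 406 were higher and 1255 lower, with a median of -0.16. In Het- against WT-labelled libraries GC content moved with the change instead, with rank correlations of 0.47 over the members and 0.36 over the 13170 tested genes with a GC value. Their part in the changes was examined by removing each library's trend over length and GC before the test.

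**Figure D4:**
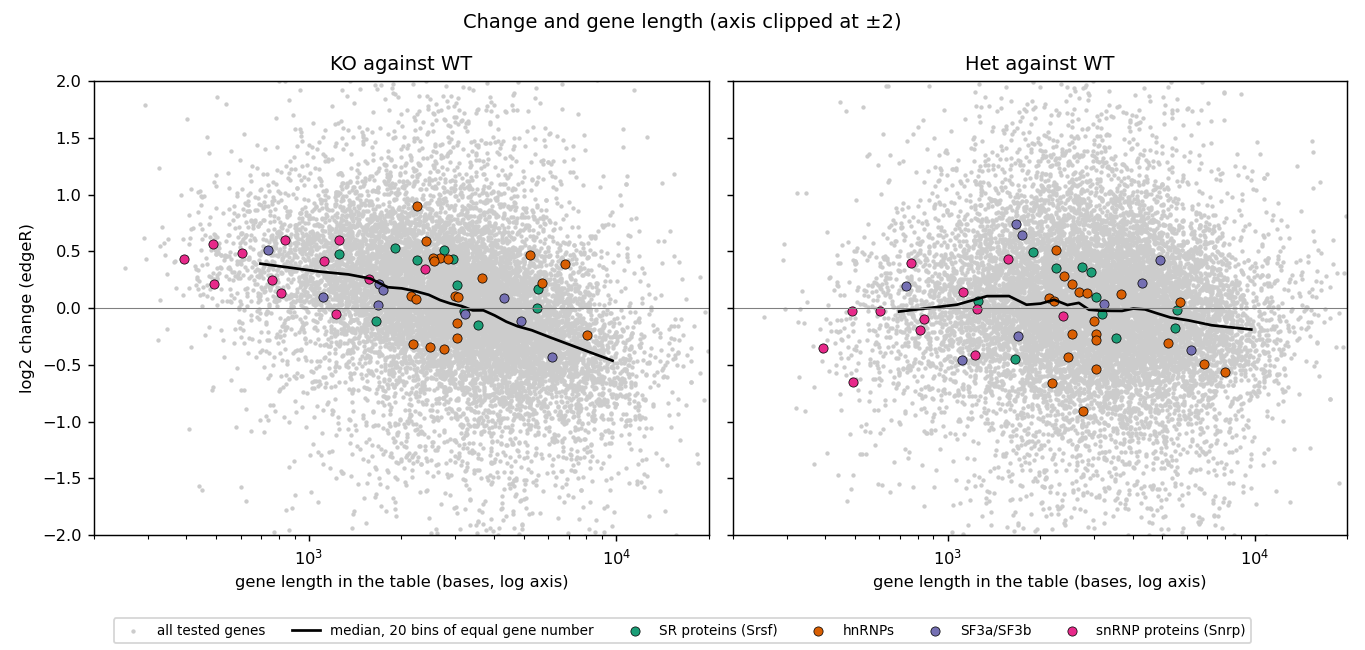
The log2 change of each tested gene (grey) and of the 52 members (coloured by family) is plotted against gene length in bases on a log axis, for KO (left) and Het (right) against WT-labelled libraries; the line joins medians of 20 bins of equal gene number. The line falls with length on the left, and the Snrp genes lie at the short end.

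With both trends removed, 10 members passed in KO- against WT-labelled libraries (16.4% of all genes), and 4 of the 15 were among them: Hnrnph3 (0.87), Srsf7 (0.59), Hnrnpa2b1 (0.58) and Hnrnpm (0.35). All 5 ring genes were lost, with changes from 0.07 for Snrpg to 0.39 for Snrpd1 (adjusted p from 0.0593 to 0.69), and Snrpg turned to -0.023 (adjusted p = 0.912) with the length trend alone removed. Newly past the threshold were Hnrnpd (0.79), Hnrnpa3 (0.78), Srsf1 (0.51), Hnrnpu (0.43), Hnrnpul2 (0.41) and Hnrnpa1 (-0.36). In Het- against WT-labelled libraries 12 passed (20.3% of all genes), 6 of them shared: Hnrnpdl (-0.81), Hnrnph3 (0.67), Srsf7 (0.60), Hnrnpa1 (-0.50), Srsf2 (0.47) and Sf3a1 (0.43). The split turned from 6 higher and 8 lower to 9 higher and 3 lower, and Sf3a2 was down to 0.29 (adjusted p = 0.172) and Hnrnpr to -0.22 (adjusted p = 0.234). Between KO- and Het-labelled libraries 3 passed (2.46% of all genes), Hnrnpd (0.97), Sf3a2 (-0.68) and Snrpc (-0.62). Hnrnpa1 was then called lower in both KO- and Het-labelled libraries while Hnrnpa2b1 was called higher in both (0.45 in Het-labelled ones).

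**Figure D5:**
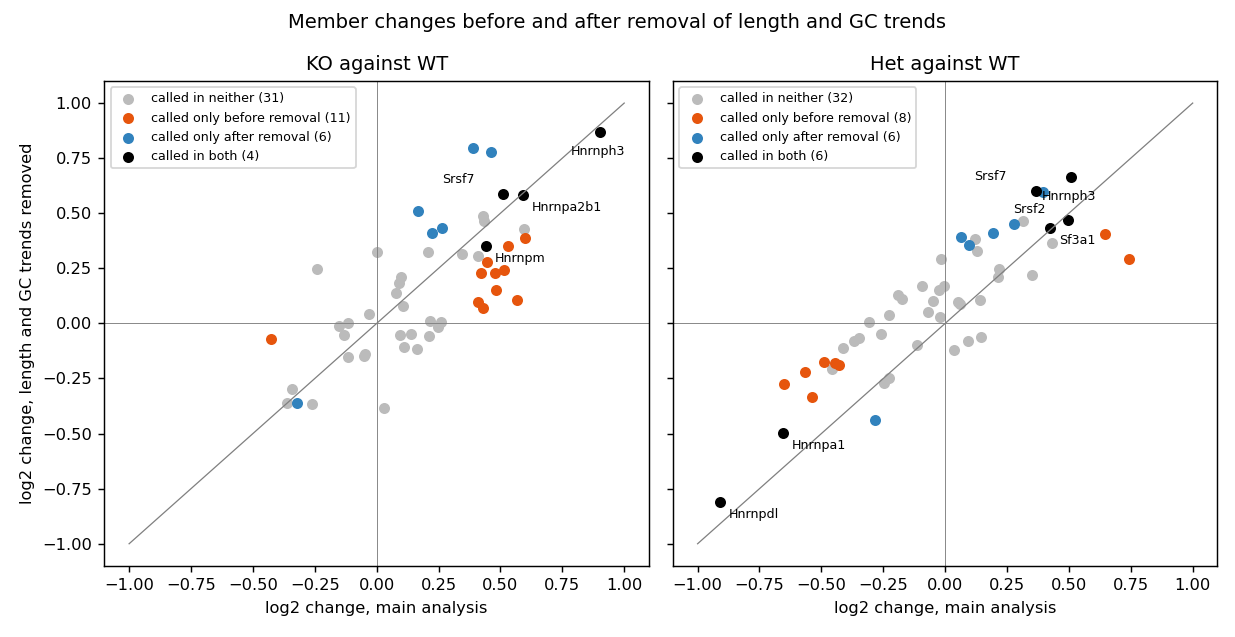
Each point is a member, with its log2 change as first tested (horizontal) and after removal of the length and GC trends (vertical), for KO (left) and Het (right) against WT-labelled libraries. Named points passed both ways, 4 on the left and 6 on the right.

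Other gene lists moved with the same libraries. The 10 immediate early genes, which answer stress and tissue dissociation, summed to 5619 and 7332 CPM in the KO-labelled, 9742 and 9728 in the Het-labelled, 3747 and 4049.9 in the WT-labelled and 4163 and 6097 in the SmoM2-labelled libraries, with 6 of 10 higher in KO- and 8 of 10 in Het-labelled libraries. The 7 early nephron genes summed to 1337 and 1626, 493 and 735, 473 and 649.8, and 433 and 589 CPM, with 6 of 7 higher in KO-labelled libraries and 2 of 7 in Het-labelled ones. Proliferation genes (8) summed to 1146 and 1604, 1298 and 1282, 1005 and 1287, and 1115 and 1182 CPM, with 2 of 8 higher in KO-labelled libraries. Nephron progenitor markers (7) summed to 4001 and 3399.7, 4719 and 4207, 3258 and 2850.1, and 3189 and 3057 CPM, with 2 of 7 higher in KO- and 4 of 7 in Het-labelled libraries. Red cell genes (6) summed to 45.2 and 13.7, 24.9 and 19.9, 4.10 and 5.23, and 7.87 and 2.77 CPM, and 3 and 2 of the 4 tested were higher. The part of these lists in the members' changes was not tested.

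The rest of the splicing machinery was read from 10 further lists of 155 genes, of which 152 were tested. In KO- against WT-labelled libraries 15 rose and 20 fell (23% of all tested genes passed there), with a median change of 0.09. In Het- against WT-labelled ones 15 rose and 30 fell (25.3% of all tested genes passed), with a median of -0.08. None passed in SmoM2-labelled libraries (0.223% of all genes did). Between KO- and Het-labelled ones 15 rose and 6 fell (4.33% of all genes were higher and 5.1% lower). The E and A complex list, of factors that mark splice sites before the spliceosome forms, had 6 of 17 lower and none higher in Het-labelled libraries (12.2% of all genes were lower and 13.1% higher), among them Luc7l2 (-0.60, SE 0.12, edgeR adjusted p = 0.00634) and Ddx46 (-0.54), a helicase that acts with the U2 snRNP. The Prp19 and catalytic list had 5 of 22 lower, led by Cwc27 (-0.85, SE 0.22, adjusted p = 0.0163). In the tri-snRNP list Snrnp200, the helicase that unwinds U4 from U6, was lower in KO- (-0.67) and Het-labelled libraries (-0.54), and Prpf8, the scaffold of the catalytic centre, in KO-labelled ones (-0.60). Of the Lsm genes, whose ring resembles the Sm ring, Lsm2 rose in both (0.83 and 0.65) and Lsm4 in KO-labelled libraries (0.61). The minor spliceosome gene Zmat5 rose by 1.22 and 1.20. In the same list Snrnp25 rose in KO-labelled libraries, and Rnpc3 fell in both. Means of Rnpc3 were 18.7 CPM in KO-, 14.6 in Het- and 26.8 in WT-labelled libraries.

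The list of other regulators of alternative splicing held the largest changes. It had 6 higher and 10 lower of 36 tested genes in KO-labelled libraries (11.6% and 11.4% of all genes) and 4 higher and 11 lower in Het-labelled ones (13.1% and 12.2%). Cirbp, an RNA-binding protein induced by cold, stood at 214 and 159.8 CPM in the KO-labelled, 94.5 at most in the Het-labelled, 388 and 396 in the WT-labelled and 341 and 379 in the SmoM2-labelled libraries. It fell by 1.07 (SE 0.15, edgeR adjusted p = 0.00096) in KO-labelled and by 2.17 (SE 0.16, adjusted p = 3.19e-05) in Het-labelled libraries, and KO- exceeded Het-labelled libraries by 1.10. Rbm3, its cold-induced relative, stood at 246 and 254, 136 and 111, 316 and 308, and 293 and 319.9 CPM and fell by 1.33 in Het-labelled libraries (SE 0.13, adjusted p = 0.000105). In Hnrnpdl and Hnrnpa1, as in Cirbp and Rbm3, the Het-labelled pair was lowest and the KO-labelled pair next. Ptbp2 (-0.76 and -1.26) and Mbnl2 (-1.07 and -0.90) fell in KO- and Het-labelled libraries. Tra2a, an SR-like activator of exons, stood at 132 and 128, 114 and 125, 68.6 and 71.6, and 55.0 and 60.7 CPM, and rose by 0.89 (SE 0.12, edgeR adjusted p = 0.000776) and 0.77 (SE 0.12, adjusted p = 0.00147), with the order of groups seen for Srsf7. Clk3, a kinase of SR proteins, rose by 0.42 and 0.35, and Esrp2, the epithelial splicing regulator, rose by 2.09 (SE 0.59, adjusted p = 0.0273) in KO-labelled libraries on 12 counts at most.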

How the data were processed

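Per the labels, RNA of the sorted cells was purified with a single-cell kit and selected for poly(A), and libraries were made from its cDNA. The submitters' processing notes name STAR, Subread, featureCounts and mm10 (the build GRCm38), and the strand setting is not given in the sources used here. Per the file headers, the authors deposited raw counts per gene, RPKM values and a gene length in 1 table, and all 8 libraries were used. The listed counts were 81.1% to 83.3% of the totals that the deposited RPKM values imply. Groups and replicate numbers came from the titles.

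Tests on the counts used edgeR 4.0.16 (R 4.3.3): filterByExpr, scaling by the trimmed mean of M values, and 1 quasi-likelihood fit of group means over all 8 libraries (4 residual degrees of freedom, biological coefficient of variation 13.5%), tested on simulated data. P-values were two-sided and adjusted by Benjamini-Hochberg over all 13459 tested genes. With 2 libraries a group no permutation test between 2 groups can pass 0.05. Alternatives were DESeq2 1.42.0, its size factors, the totals implied by RPKM, other filters, only the groups compared, a replicate block, each library left out, and removal of lowess trends (span 0.3) over length and GC, of which the removal of either trend alone was chosen after seeing the data. CPM use the scaled library sizes. The members and lists were chosen with earlier results of these data known. Library values are given for members that passed, or for the 6 largest changes in each direction where over 12 passed, and for the 2 of highest RPKM in each family; other members may be named, and of each other splicing list up to 3 in each direction. A window of 50 bases of an exon counts as shared where it recurs in exons of another GENCODE M21 gene.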

Additional observations from a re-analysis of the deposited data

How the results depend on the processing

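SmoM2 against WT passed 0 members under every alternative tried. With only the 2 groups compared, KO against WT passed 8 members. With the GC trend removed, Het against WT passed 9 (7 higher, 2 lower). KO against Het passed 17 with the totals implied by RPKM (16 higher, 1 lower), 17 with no filter beyond 1 count and 3 with both trends removed. The counts in this section stand without the share of all tested genes under the same setting. They therefore do not show whether the members moved differently from all genes, or whether calls were gained or lost among all genes alike. The cause was not tested. Leaving out each library in turn gave 3 to 14 members for KO against WT, 4 to 15 for Het against WT, 0 to 14 for KO against Het and 11 to 27 for the test over all 4 groups. For Het against WT the split was 1 higher and 8 lower without the first WT-labelled library and 5 and 3 without the second. Of the changes that passed, only Snrpg in KO against WT reversed, to a log2 change of -0.023, with the length trend removed. With both trends removed, 41, 38, 48 and 39 of all 52 members kept their sign for KO, Het and SmoM2 against WT and KO against Het. The replicate numbers are not said to pair libraries, and the correlation of same-numbered deviations was 0.39 between WT and SmoM2 but between -0.06 and 0.10 for the other pairs of groups over all genes, and from 0.12 to 0.58 over the members. With the replicate block, 17 members passed for KO against WT, 17 for Het against WT, 0 for SmoM2 against WT, 12 for KO against Het and 27 over all 4 groups. A comparison of only 2 groups does not apply to the test over all 4. Depth was lowest in the KO-labelled libraries. Srsf12, with 2 to 20 counts a library, had the widest intervals of the members.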

Other observations

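Within groups, the splicing factor genes differed between the replicates of the WT-labelled and SmoM2-labelled libraries. The second WT-labelled library had a summed level 14.6% above the first, and 46 of the 52 members were higher in it (88.5%, against 50.6% of all tested genes). The second SmoM2-labelled library was 10.9% above the first, again with 46 of 52 higher (50.2% of all tested genes). In both groups the first library was of the male and the second of the female pattern by Xist. The KO-labelled libraries, both of the male pattern, differed by 2.09%, with 30 members higher in the second, and the Het-labelled libraries, both of the female pattern, by -5.76%, with 16 higher in the second. With 1 library of each pattern in a group, no test was made.

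The annotation bears on what these counts hold. GENCODE M21 lists a transcript subject to nonsense-mediated decay for 24 of the 52 members and one with a retained intron for 38, and counts per gene cannot separate these from coding transcripts. At least 1 exonic window of 50 bases recurs in another annotated gene for 43 members, over 10% of windows for 22 and over 25% for 14, and 21 overlap a gene on the opposite strand.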
